A study of Mus musculus with 14 samples.

Results

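The genes described here belong to the p53 and Ink4 checkpoint pathways, which are known as barriers to the reprogramming of fibroblasts. Not every listed gene is itself a barrier, since Mdm2 acts against p53. The list named 10 genes: Trp53, Cdkn1a, Cdkn2a, Cdkn2b, Mdm2, Ccng1, Plk2, Trp53inp1, Gdf15 and Bbc3. Each gene was to be read from the probe set annotated to it that had the highest mean over all arrays. A probe set of its own was found for 7 genes. Cdkn1a was found only on a probe set annotated to both Cdkn1a and 4930567H12Rik, a long non-coding RNA gene that RefSeq places on another chromosome, so its values are given as those of the Cdkn1a/4930567H12Rik probe set and cannot be split between the 2 genes. No probe set is named for Trp53 or Gdf15 in the annotation used, and these 2 genes are not analysed here. The description therefore rests on 8 of the 10 listed genes, with 1 probe set each, out of 19936 genes or probe sets tested.

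The 14 Affymetrix whole-transcript arrays came from embryonic fibroblasts (MEFs) of ICR mice grown in medium for mouse embryonic stem cells. The cells were transduced with SKO and HDAC7, with SKO and MEF2C, with SKO and the empty Flag vector, or with GFP, and were lysed on day 6 or day 10. SKO is not spelled out in the labels and commonly stands for the reprogramming factors Oct4, Klf4 and Sox2. HDAC7 is an enzyme of the class IIa histone deacetylases, which bind and repress MEF2 transcription factors such as MEF2C. Each SKO group had 2 arrays per day and GFP had 1 array per day. The empty vector is the control for HDAC7 and MEF2C, and all 3 SKO groups share the SKO factors, and GFP is the group labelled without them. Feeder cells were removed before lysis. The labels give no passage number and do not say whether the numbered experiments began from separate cultures. The p-values therefore reflect spread between arrays that may be technical.

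The p53 protein is a transcription factor that stress and DNA damage activate, and its targets stop the cell cycle, trigger cell death or feed back on p53 itself. The Ink4 locus holds Cdkn2a and Cdkn2b, whose products p16Ink4a and p15Ink4b inhibit the kinases of the D-type cyclins, while p19Arf, the other product of Cdkn2a, frees p53 from Mdm2. Cultured mouse fibroblasts are known to raise p16Ink4a and p19Arf as they age in culture, and loss of p53 or of the Ink4 locus is known to raise the yield of induced pluripotent cells. The Cdkn2a probe set is annotated to transcripts of both p16Ink4a and p19Arf, so the values below do not separate them.

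Promoters of 5 genes are shown. Those of Cdkn1a, Mdm2 and Ccng1 were chosen because they hold at least 1 match to the p53 response element decamer. Those of Cdkn2b and Plk2 were chosen because their levels differed between the vectors. Each run is the 250 bases before an annotated start site in RefSeq (GRCm38.p6), 5′ to 3′ on the strand of the gene. Capitals mark matches to the p53 response element decamer, a palindromic motif that reads alike on both strands.
Cdkn1a, chr17:29090729-29090978, plus strand: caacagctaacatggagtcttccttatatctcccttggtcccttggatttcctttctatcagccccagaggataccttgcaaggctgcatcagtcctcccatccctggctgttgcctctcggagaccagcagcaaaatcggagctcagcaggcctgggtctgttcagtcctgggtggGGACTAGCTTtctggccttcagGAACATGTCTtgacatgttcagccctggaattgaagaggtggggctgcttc
Mdm2, chr10:117710759-117711008, minus strand: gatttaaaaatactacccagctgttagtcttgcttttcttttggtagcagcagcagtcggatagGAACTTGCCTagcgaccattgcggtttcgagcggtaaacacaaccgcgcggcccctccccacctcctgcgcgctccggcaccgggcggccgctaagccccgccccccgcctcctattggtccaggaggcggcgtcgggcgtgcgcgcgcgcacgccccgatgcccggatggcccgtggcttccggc
Ccng1, chr11:40755287-40755536, minus strand: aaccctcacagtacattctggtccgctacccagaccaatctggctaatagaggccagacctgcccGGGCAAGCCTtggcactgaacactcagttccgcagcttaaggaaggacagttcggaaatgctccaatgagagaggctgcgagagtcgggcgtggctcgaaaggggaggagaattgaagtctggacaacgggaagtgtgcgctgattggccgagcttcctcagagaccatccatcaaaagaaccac
Cdkn2b, chr4:89311033-89311282, minus strand: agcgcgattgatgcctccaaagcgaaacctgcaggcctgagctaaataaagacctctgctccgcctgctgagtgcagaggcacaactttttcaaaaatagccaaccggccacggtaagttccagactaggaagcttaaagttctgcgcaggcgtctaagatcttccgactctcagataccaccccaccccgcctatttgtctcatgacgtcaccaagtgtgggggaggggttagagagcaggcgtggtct
Plk2, chr13:110394794-110395043, plus strand: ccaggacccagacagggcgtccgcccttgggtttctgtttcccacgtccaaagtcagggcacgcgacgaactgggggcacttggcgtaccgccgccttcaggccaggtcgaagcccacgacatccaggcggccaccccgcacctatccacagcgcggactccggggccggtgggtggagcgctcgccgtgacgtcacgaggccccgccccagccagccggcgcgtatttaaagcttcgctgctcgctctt
Of the 8 described genes, 7 had at least 1 promoter in the RefSeq table, with 11 start sites in all. A decamer stood at 3 of the 11 start sites, 1 each for Cdkn1a, Mdm2 and Ccng1, against 7.13% of all 32851 promoters of the same length. In the Cdkn1a promoter shown it stood at 2 places, beginning at positions -73 and -51 relative to that start site. The other annotated Cdkn1a start site, with the window chr17:29093519-29093768, had no match. The decamer of Mdm2 began at -186 and that of Ccng1 at -185. The pattern searched for MEF2 factors (CTA, then any 4 bases, then TAG), also palindromic, was in none of the 11 windows and in 3.2% of all promoters. Other forms of the MEF2 motif were not searched. A match describes letters in the window and not a bound site.

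Levels are on the deposited log2 scale, 1 value per probe set and array. Array medians over the probe sets lay between 5.68 and 5.76, replicate arrays correlated at 0.995 to 0.997, and the day 10 arrays of SKO+Flag were the pair furthest apart (SD of the differences 0.172, against 0.12 for the closest pair). Fibroblast identity was visible on every array: all 8 fibroblast markers lay above the array's gene median on all arrays, with a mean log2 level of 9.36 to 9.69 in SKO+HDAC7, 9.72 to 9.76 in SKO+MEF2C, 9.5 to 9.66 in SKO+Flag and 10.56 to 10.97 in GFP. None of the 6 pluripotent cell markers lay above the median on all arrays of any vector. In these bulk samples fewer cells of a type and less RNA per cell cannot be told apart. Where groups are said below not to overlap, the share of all genes that separate likewise was not counted.

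Of the Ink4 genes, Cdkn2b had levels that did not overlap between the vectors within a day, while for Cdkn2a the SKO vectors overlapped and GFP stood apart. Cdkn2b codes for p15Ink4b, an inhibitor that TGF-beta is known to induce. On day 6 the log2 level of Cdkn2b was 7.21 and 7.25 in SKO+HDAC7, 7.93 and 7.87 in SKO+MEF2C, 7.55 and 7.56 in SKO+Flag and 8.62 in GFP. By day 10 Cdkn2b measured 6.72 and 6.77 in SKO+HDAC7, 7.42 and 7.50 in SKO+MEF2C, 7.11 and 7.20 in SKO+Flag and 8.10 in GFP. GFP was highest and SKO+HDAC7 lowest on both days, and none of the 8 groups of vector and day overlapped its neighbour in the order of levels. From high to low that order ran GFP day 6, GFP day 10, SKO+MEF2C day 6, SKO+Flag day 6, SKO+MEF2C day 10, SKO+HDAC7 day 6, SKO+Flag day 10 and SKO+HDAC7 day 10. On day 6 Cdkn2a, which lies beside Cdkn2b in the genome, had 6.39 and 6.54 in SKO+HDAC7, 6.61 and 6.85 in SKO+MEF2C, 6.39 and 6.80 in SKO+Flag and 7.62 in GFP. At day 10 the values were 6.61 and 6.79 in SKO+HDAC7, 6.87 and 6.88 in SKO+MEF2C, 6.92 and 6.75 in SKO+Flag and 7.60 in GFP. Both GFP arrays lay above all 12 SKO arrays for Cdkn2a, while every SKO group overlapped its neighbours in the order of levels.

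Mdm2 and Cdkn1a are the best known products of the p53 response. Mdm2 codes for the ubiquitin ligase that marks p53 for breakdown and is itself a p53 target. Its log2 level on day 6 was 8.76 and 8.76 in SKO+HDAC7, 8.73 and 8.82 in SKO+MEF2C, 8.79 and 8.78 in SKO+Flag and 9.02 in GFP. On day 10 Mdm2 measured 8.50 and 8.34 in SKO+HDAC7, 8.45 and 8.44 in SKO+MEF2C, 8.13 and 8.36 in SKO+Flag and 8.62 in GFP. For Mdm2 the day separated the SKO arrays, with every day 10 array below every day 6 array, and within a day each SKO group overlapped its neighbour in the order of levels. Cdkn1a codes for p21, the inhibitor through which p53 is known to arrest the cycle. The Cdkn1a/4930567H12Rik probe set had 9.71 and 9.74 in SKO+HDAC7, 9.69 and 9.73 in SKO+MEF2C, 9.66 and 9.68 in SKO+Flag and 9.64 in GFP on day 6. On day 10 it had 9.20 and 9.15 in SKO+HDAC7, 9.46 and 9.55 in SKO+MEF2C, 9.20 and 9.28 in SKO+Flag and 9.54 in GFP. All 4 vectors lay close together at day 6. At day 10 the SKO+HDAC7 and SKO+Flag arrays were the low ones, and SKO+MEF2C overlapped GFP.

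Among the other p53 targets, Plk2 and Ccng1 had levels that differed both by vector and by day. Plk2, a polo-like kinase that serum and p53 are known to induce, was high in GFP and separated the SKO vectors. On day 6 Plk2 had 8.48 and 8.72 in SKO+HDAC7, 8.37 and 8.39 in SKO+MEF2C, 8.26 and 8.19 in SKO+Flag and 9.60 in GFP. On day 10 Plk2 had 8.32 and 8.37 in SKO+HDAC7, 8.03 and 7.93 in SKO+MEF2C, 7.65 and 7.77 in SKO+Flag and 9.52 in GFP. Within each day the order was GFP, SKO+HDAC7, SKO+MEF2C and SKO+Flag, without overlap. In each SKO vector both day 10 arrays of Plk2 lay below both day 6 arrays. Ccng1 codes for cyclin G1, a partner of Mdm2 and a p53 target. Its day 6 levels were 11.30 and 11.24 in SKO+HDAC7, 11.47 and 11.52 in SKO+MEF2C, 11.48 and 11.48 in SKO+Flag and 11.48 in GFP. Its day 10 levels were 10.62 and 10.75 in SKO+HDAC7, 11.02 and 10.94 in SKO+MEF2C, 10.60 and 10.89 in SKO+Flag and 11.14 in GFP. All 6 SKO arrays of day 10 lay below all 6 SKO arrays of day 6 for Ccng1. Within each day both SKO+HDAC7 arrays of Ccng1 lay below both SKO+MEF2C arrays.

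Trp53inp1 codes for a stress protein that acts with p53, and Bbc3 for PUMA, a trigger of apoptosis. Trp53inp1 had 8.92 and 9.06 in SKO+HDAC7, 8.59 and 8.90 in SKO+MEF2C, 8.84 and 8.99 in SKO+Flag and 9.36 in GFP on day 6. On day 10 it had 8.79 and 8.70 in SKO+HDAC7, 8.38 and 8.39 in SKO+MEF2C, 7.93 and 8.60 in SKO+Flag and 9.24 in GFP. The 2 SKO+Flag arrays of day 10 were far apart for this gene, and GFP lay above all SKO arrays. Bbc3 ranged from 5.38 to 5.82 over the 12 SKO arrays, with a median of 5.71, and had 6.05 at day 6 and 6.02 at day 10 in GFP. These Bbc3 levels lie around the gene medians of the arrays, which were 5.91 to 5.98, and no detection calls were used, so they may hold little signal.

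**Figure D1:**
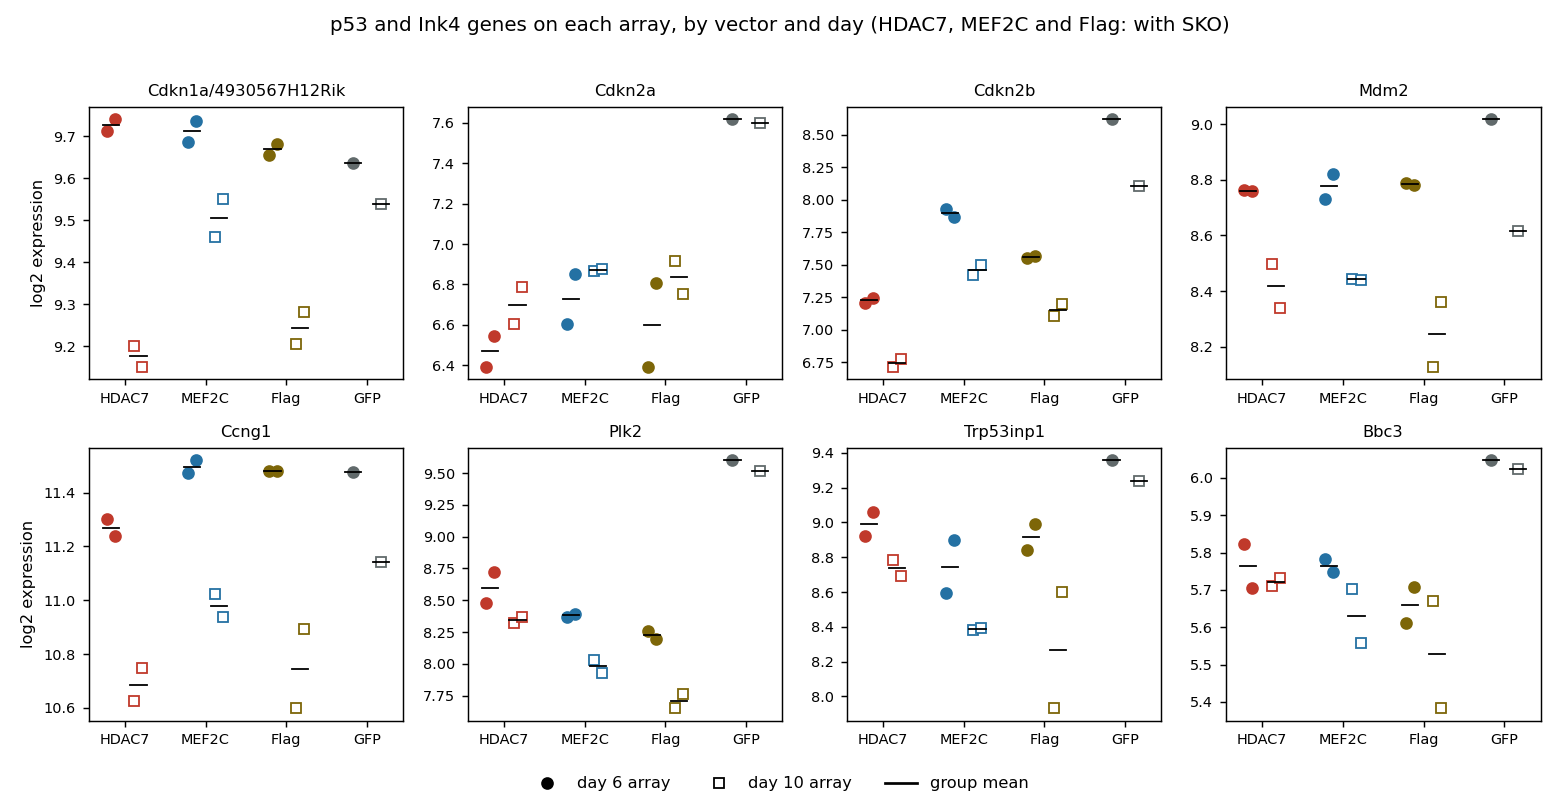
Log2 expression of the 8 p53 and Ink4 genes on each of the 14 arrays, by vector, with filled circles for day 6, open squares for day 10 and bars for group means; each panel has its own axis. GFP stands above every SKO array for Cdkn2a, Cdkn2b, Plk2, Trp53inp1 and Bbc3. The day 10 squares stand below the day 6 circles of the SKO vectors for Mdm2, Ccng1 and Cdkn1a/4930567H12Rik. The share of all genes separated in these ways was not counted.

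The comparison of SKO with GFP asks how the reprogramming factors change these genes in fibroblasts. With the mean of both days, 7 of the 8 genes were called lower in SKO+HDAC7 than in GFP, 6 in SKO+MEF2C and 6 in SKO+Flag, and none was called higher, by limma at a Benjamini-Hochberg adjusted p under 0.05 over all 19936 genes. The share of all genes called lower in the same comparisons was 15.9% in SKO+HDAC7, 14.6% in SKO+MEF2C and 18.2% in SKO+Flag, and the share called higher 17.5%, 16.6% and 17.5%. The median difference of the 8 genes from GFP was -0.38, -0.51 and -0.575 in that order of vectors, against -0.014, -0.029 and -0.037 over all genes. None of the 8 was higher at an unadjusted limma p under 0.05 in any of the 3 comparisons, though the share of all genes at that threshold was not counted. These 3 comparisons share the 2 GFP arrays, and each GFP group has 1 array, which is assumed to vary like the other groups.

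Plk2, Cdkn2b and Cdkn2a had the widest differences from GFP in SKO+HDAC7 and SKO+Flag, while in SKO+MEF2C Trp53inp1 stood before Cdkn2b. Plk2 averaged 8.47 in SKO+HDAC7, 8.18 in SKO+MEF2C and 7.97 in SKO+Flag, against 9.56 in GFP. Its log2 difference from GFP was -1.09 ± 0.07 in SKO+HDAC7, -1.38 ± 0.07 in SKO+MEF2C and -1.59 ± 0.07 in SKO+Flag (limma difference ± SE), so GFP was 2.13, 2.6 and 3.02 times as high. The adjusted p was 3.4e-07, 6.3e-08 and 1.6e-08 in the same order. In each vector all 4 arrays lay below the GFP array of their day. In SKO+Flag the difference of Plk2 lay among the lowest 0.466% of genes.

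Cdkn2b averaged 6.99 in SKO+HDAC7, 7.68 in SKO+MEF2C and 7.36 in SKO+Flag, against 8.36 in GFP. The differences from GFP were -1.38 ± 0.05 in SKO+HDAC7 (adjusted p = 3.8e-09), -0.68 ± 0.05 in SKO+MEF2C (adjusted p = 1.5e-06) and -1.01 ± 0.05 in SKO+Flag (adjusted p = 5e-08), all by limma. For Cdkn2a they were -1.03 ± 0.11 in SKO+HDAC7 (adjusted p = 2.5e-05), -0.81 ± 0.11 in SKO+MEF2C (adjusted p = 2e-04) and -0.89 ± 0.11 in SKO+Flag (adjusted p = 8.3e-05). Both Ink4 genes were thus lower with SKO on all 12 arrays. The calls of Plk2, Cdkn2b and Cdkn2a against GFP held under all alternatives and without any single array.

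Trp53inp1, Bbc3 and Mdm2 were also called lower in all 3 vectors, by smaller amounts. Trp53inp1 differed from GFP by -0.43 ± 0.15 in SKO+HDAC7, -0.73 ± 0.15 in SKO+MEF2C and -0.71 ± 0.15 in SKO+Flag (limma adjusted p = 0.047, 0.003 and 0.0034). Bbc3 differed by -0.29 ± 0.08, -0.34 ± 0.08 and -0.44 ± 0.08 in that order (limma adjusted p = 0.015, 0.0076 and 0.0012). For Mdm2 the differences were -0.23 ± 0.07, -0.21 ± 0.07 and -0.30 ± 0.07 (limma adjusted p = 0.027, 0.045 and 0.0059). Bbc3 in SKO+Flag kept its call without any single array (limma adjusted p up to 0.03), while each of the other calls of these 3 genes was lost without at least 1 array. Without the GFP array of day 10, which leaves day 6 alone, Mdm2 and Trp53inp1 in SKO+Flag had limma adjusted p = 0.12 and 0.17, and 3 of the 8 genes were called in SKO+HDAC7 and 3 in SKO+MEF2C. In SKO+HDAC7 the Trp53inp1 call was kept in 4 of 14 cases of leaving out 1 array (limma adjusted p = 0.0022 to 0.27), and the Mdm2 call in SKO+MEF2C in 4 of 14 as well (limma adjusted p = 0.017 to 0.28). The kept cases were those without an SKO+Flag array of day 10 for both genes, without an SKO+MEF2C array of day 6 for Trp53inp1 and without an SKO+HDAC7 array of day 10 for Mdm2. In SKO+HDAC7 the Mdm2 call was lost without either GFP array, either SKO+HDAC7 array of day 6 or the second of day 10 (limma adjusted p up to 0.19), and the Bbc3 call without either GFP array (0.1 at most).

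Ccng1 was called lower in 1 vector and Cdkn1a/4930567H12Rik in none when the days were averaged. Ccng1 was called lower in SKO+HDAC7 (-0.33 ± 0.08, limma adjusted p = 0.0058), while its difference was -0.07 ± 0.08 in SKO+MEF2C and -0.20 ± 0.08 in SKO+Flag (limma adjusted p = 0.55 and 0.071). The SKO+HDAC7 call of Ccng1 was lost without the GFP array of day 10 (limma adjusted p = 0.22). Cdkn1a/4930567H12Rik differed from GFP by -0.14 ± 0.05 in SKO+HDAC7, 0.02 ± 0.05 in SKO+MEF2C and -0.13 ± 0.05 in SKO+Flag, with no call (limma adjusted p = 0.067, 0.8 and 0.071). Without the GFP array of day 6, which leaves day 10 alone, Cdkn1a/4930567H12Rik was called lower in SKO+HDAC7 (-0.36) and SKO+Flag (-0.30), and Ccng1 was called lower in SKO+Flag (-0.40), with limma adjusted p = 0.0029, 0.011 and 0.019. The 95% interval of the Cdkn1a/4930567H12Rik difference in SKO+MEF2C ran from -0.09 to 0.14.

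**Figure D2:**
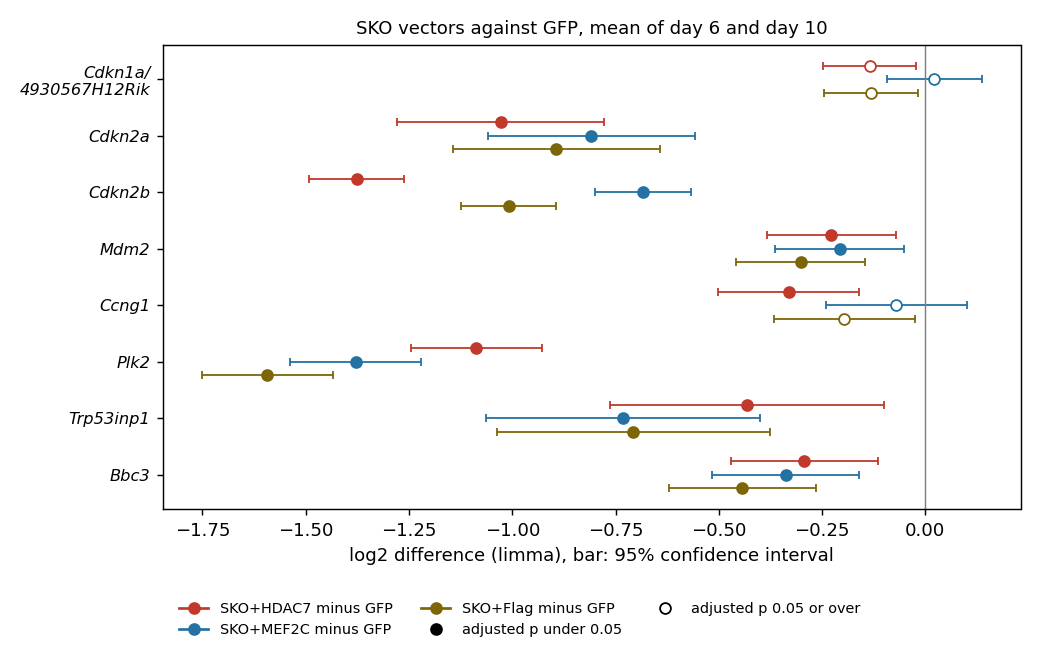
Log2 difference of each SKO vector from GFP for the 8 genes, as the mean of day 6 and day 10, with 95% confidence intervals from limma and filled points for an adjusted p under 0.05. Plk2, Cdkn2b and Cdkn2a lie farthest below 0 in SKO+HDAC7 and SKO+Flag, and Cdkn1a/4930567H12Rik lies nearest to it in all 3 vectors.

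For SKO+Flag the days were also set against GFP one at a time. At day 6, 4 genes were called lower (Plk2, Cdkn2b, Cdkn2a and Bbc3), beside 10.8% of all genes called lower and 13.2% higher. At day 10 all 8 were called lower, beside 13.2% of all genes called lower and 13.7% higher. The 4 genes called at day 10 alone include Cdkn1a/4930567H12Rik, whose difference from GFP was 0.03 ± 0.07 at day 6 (limma adjusted p = 0.81) and -0.30 ± 0.07 at day 10 (limma adjusted p = 0.011). Ccng1 differed by 0.00 ± 0.11 at day 6 and by -0.40 ± 0.11 at day 10 (limma adjusted p = 0.99 and 0.019). The change of the difference between the days was itself called for none of the 8 genes, with a lowest adjusted p of 0.11 by limma, beside 5.06% of all genes, so the days are not shown to differ. At an unadjusted limma p under 0.05 there were 3 genes, all lower, but the share of all genes at that threshold was not counted. With only the 3 arrays of day 10 in the fit, 3 genes were called at that day, and without the first SKO+Flag array of day 10 the calls of Mdm2 and Ccng1 were lost (limma adjusted p = 0.07 and 0.069). The day 6 call of Bbc3 was lost without the first SKO+Flag array of that day (limma adjusted p = 0.12). Without the second SKO+Flag array of day 10 the change between days was called for Ccng1 and Trp53inp1 (limma adjusted p = 0.025 and 0.021).

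Proliferation markers moved with these differences. All 9 measured markers were called higher in SKO+HDAC7 and in SKO+Flag than in GFP and 8 in SKO+MEF2C, and their mean log2 level was 8.72 to 8.75 in SKO+HDAC7, 8.21 to 8.32 in SKO+MEF2C and 8.29 to 8.65 in SKO+Flag, against 7.66 to 7.83 in GFP. Of 8 fibroblast markers, 7 were called lower in SKO+HDAC7, 6 in SKO+MEF2C and 7 in SKO+Flag. Of 6 epithelial cell markers, 4 were called higher in SKO+HDAC7, 2 in SKO+MEF2C and 3 in SKO+Flag. Of 5 macrophage and blood cell markers and 5 endothelial cell markers measured, 1 of each was called higher in each of the 3 vectors. The mean log2 level was 5.8 to 5.97 in SKO+HDAC7, 5.57 to 5.66 in SKO+MEF2C and 5.55 to 5.79 in SKO+Flag, against 5.14 to 5.19 in GFP for the endothelial list, and 5.22 to 5.48 in SKO+HDAC7, 5.17 to 5.32 in SKO+MEF2C and 5.1 to 5.25 in SKO+Flag, against 5.11 to 5.21 in GFP for the macrophage and blood list. For the epithelial list it was 5.92 to 7.09 in SKO+HDAC7, 5.58 to 5.94 in SKO+MEF2C and 5.77 to 6.53 in SKO+Flag, against 5.59 to 5.67 in GFP. The part of these shifts in the p53 and Ink4 values was not tested.

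The comparison with SKO+Flag asks what HDAC7 or MEF2C adds to SKO. Cdkn2b moved in opposite directions: it was lower with HDAC7 and higher with MEF2C, on all arrays and both days. Plk2 was higher with HDAC7, and the other 6 genes were not called with HDAC7. With MEF2C, 3 genes were called higher and none lower. All calls are for the mean of both days by limma, with 4.83% of all genes called higher and 6.06% lower for HDAC7, and 5.49% higher and 4.82% lower for MEF2C. With each array centred on its median, these shares were 3.5% higher and 7.62% lower for HDAC7 and 4.32% higher and 5.73% lower for MEF2C. The median difference of the 8 genes was 0.035 for HDAC7, against 0.018 over all genes, and 0.115 for MEF2C, against 0.008 over all genes. Both comparisons share the 4 SKO+Flag arrays.

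For HDAC7 the Cdkn2b difference was -0.37 ± 0.04 (limma adjusted p = 0.00028), which puts SKO+Flag 1.29 times as high, and it was negative in 8 of 8 pairs of arrays within a day. At day 6 alone it was -0.33 ± 0.06 (limma adjusted p = 0.013) and at day 10 alone -0.41 ± 0.06 (limma adjusted p = 0.0022). Plk2 averaged 8.47 in SKO+HDAC7 and 7.97 in SKO+Flag, a difference of 0.51 ± 0.06 or 1.42 times (limma adjusted p = 0.00028). It was 0.37 ± 0.08 at day 6 (limma adjusted p = 0.031) and 0.64 ± 0.08 at day 10 (limma adjusted p = 0.00087). In each day alone, 1 gene was called higher (Plk2) and 1 lower (Cdkn2b), beside 1.82% and 2.76% of all genes at day 6 and 3.33% and 3.95% at day 10 (2.36% and 4.66% with median centring). The calls of both genes over both days held under all alternatives and without any single array. Those of day 6 were lost when only the 4 arrays of that day were fitted, with limma adjusted p = 0.066 for Cdkn2b and 0.11 for Plk2, and in the same way Cdkn2b lost its day 10 call (limma adjusted p = 0.052). Without either SKO+Flag array of day 6 neither was called at that day, and without the first or the second SKO+HDAC7 array of day 6 the call of Cdkn2b (limma adjusted p = 0.089) or of Plk2 (0.15) was lost. Without either SKO+MEF2C array of day 6, which enters only the estimate of the spread, Plk2 had a limma adjusted p of 0.051.

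For MEF2C the Cdkn2b difference was 0.32 ± 0.04 or 1.25 times (limma adjusted p = 0.00065), positive in 8 of 8 pairs. It was 0.34 ± 0.06 at day 6 and 0.31 ± 0.06 at day 10 (limma adjusted p = 0.013 and 0.01). Plk2 differed by 0.21 ± 0.06 and Cdkn1a/4930567H12Rik by 0.15 ± 0.04, both positive in 8 of 8 pairs (limma adjusted p = 0.042 and 0.043). The call of Cdkn2b over both days held under all alternatives and without any single array, whereas those of Plk2 and Cdkn1a/4930567H12Rik did not. Leaving out 1 array kept the call of Plk2 in 3 of 12 cases (limma adjusted p = 0.019 to 0.15): without the second SKO+Flag array of day 10 or without either SKO+HDAC7 array of day 6. It kept that of Cdkn1a/4930567H12Rik in 1 of 12 (limma adjusted p = 0.044 to 0.15), without the second SKO+Flag array of day 10. Centring each array on its median ended both calls (limma adjusted p = 0.081 and 0.085). In single days Cdkn2b was called at day 6 and both Cdkn2b and Cdkn1a/4930567H12Rik at day 10, beside 1.33% and 4.01% of all genes called higher and 1.77% and 3% lower. The day 6 call of Cdkn2b was lost without any of the 4 arrays compared (limma adjusted p = 0.061 to 0.12). At day 10 both calls were lost without the first SKO+Flag or the second SKO+MEF2C array, and that of Cdkn1a/4930567H12Rik also without the first SKO+MEF2C array (limma adjusted p up to 0.17).

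Genes without a call are not shown to be alike. Cdkn2a differed from SKO+Flag by -0.13 (95% interval -0.34 to 0.07) with HDAC7 and by 0.08 (-0.12 to 0.29) with MEF2C. For Mdm2 the intervals were -0.05 to 0.20 with HDAC7 and -0.03 to 0.22 with MEF2C. Trp53inp1 differed by 0.28 (0.01 to 0.55) with HDAC7, and this value rested on the SKO+Flag arrays of day 10. It was 0.44 without the second of them (limma adjusted p = 0.0054) and 0.11 without the first (limma adjusted p = 0.41). Without the first of these arrays, Ccng1 and Bbc3 were called for HDAC7 as well, at -0.21 and 0.22 (limma adjusted p = 0.025 and 0.029), so that 4 genes were called in place of 2.

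**Figure D3:**
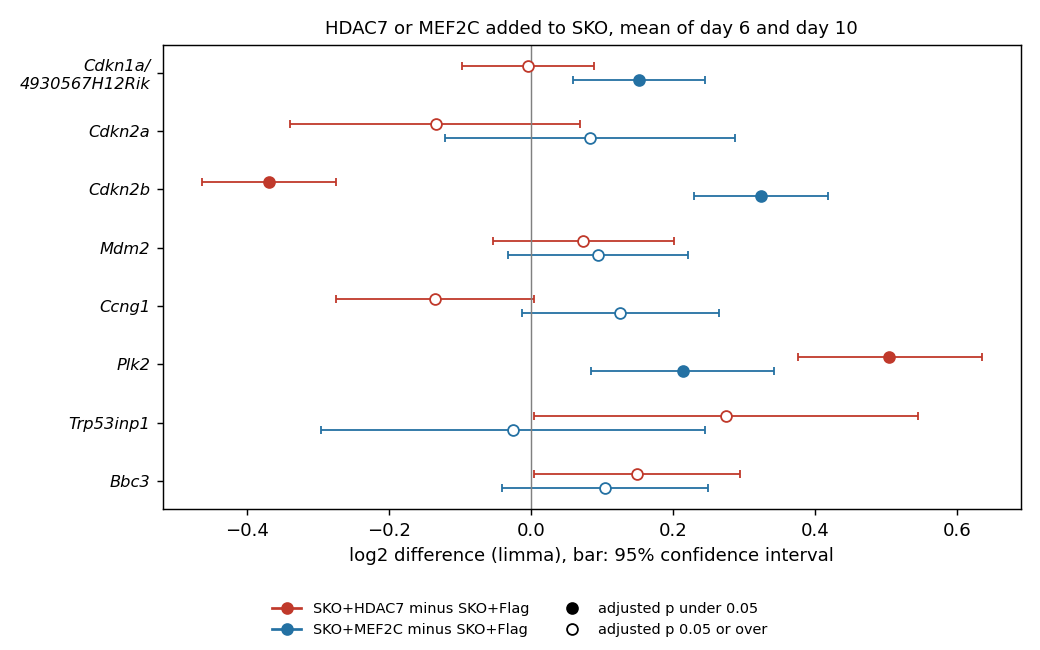
Log2 difference of SKO+HDAC7 and of SKO+MEF2C from SKO+Flag for the 8 genes, as the mean of day 6 and day 10, with 95% confidence intervals from limma and filled points for an adjusted p under 0.05. Cdkn2b lies below 0 with HDAC7 and above it with MEF2C, and Plk2 lies above 0 with both.

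Set directly against each other, SKO+HDAC7 and SKO+MEF2C differed in 4 of the 8 genes. Cdkn2b was lower in SKO+HDAC7 by the widest margin, with a difference of -0.69 ± 0.04 (limma adjusted p = 6.6e-07), so that SKO+MEF2C was 1.62 times as high. Ccng1 was lower in SKO+HDAC7 with a difference of -0.26 ± 0.06 (limma adjusted p = 0.012) and Cdkn1a/4930567H12Rik with -0.16 ± 0.04 (limma adjusted p = 0.02). Plk2 was higher in SKO+HDAC7 by 0.29 ± 0.06 (limma adjusted p = 0.004). The 1 gene called higher and 3 called lower stand beside 10.3% and 11.8% of all genes. Cdkn2a was lower in SKO+HDAC7 in 8 of 8 pairs within a day, at -0.22 ± 0.09, without a call (limma adjusted p = 0.13). It was called when only these 4 groups were fitted (limma adjusted p = 0.042). Quantile normalization ended the call of Cdkn1a/4930567H12Rik (limma adjusted p = 0.06), and leaving out the first SKO+HDAC7 array of day 10 ended that of Ccng1 (limma adjusted p = 0.052). The Cdkn1a/4930567H12Rik call also ended without the first SKO+HDAC7 array of day 6, the second of day 10, or the second SKO+MEF2C array of either day, with a highest limma adjusted p of 0.088. Trp53inp1 was higher in SKO+HDAC7 in 8 of 8 pairs within a day, at 0.3 ± 0.12, without a call (limma adjusted p = 0.11). It was called when only these 4 groups were fitted and with genes above the median level (limma adjusted p = 0.01 and 0.047). Trp53inp1 was called as well without either SKO+Flag array of day 10, which enters only the estimate of the spread.

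Proliferation, epithelial and fibroblast markers also differed between these vectors. Of 9 proliferation markers, 3 were called higher with HDAC7 than with the empty vector, while 6 were called lower with MEF2C. Of 6 epithelial cell markers, 4 were higher with HDAC7 and 3 lower with MEF2C. Among 8 fibroblast markers, 2 were higher and 4 lower with HDAC7, and 2 were higher with MEF2C. Their part in the Cdkn2b and Plk2 differences was not tested.

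The comparison of day 10 with day 6 was made within each SKO vector. GFP, with 1 array a day, was also lower at day 10 for part of the list, as given below. The day differences are therefore not shown to be particular to the SKO vectors. Ccng1 and Cdkn2b were called lower on day 10 in all 3 vectors, and Cdkn2a and Bbc3 were called in none. In SKO+HDAC7 4 genes were called lower, in SKO+MEF2C 3 and in SKO+Flag 6, and none was called higher, beside 6.7%, 1.23% and 4.33% of all genes called lower by limma and 7.87%, 1.85% and 3.75% called higher. The median difference of the 8 genes was -0.30 in SKO+HDAC7, -0.35 in SKO+MEF2C and -0.47 in SKO+Flag, against -0.025, -0.003 and -0.018 over all genes.

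Ccng1 had mean levels of 10.69 at day 10 and 11.27 at day 6 in SKO+HDAC7, a difference of -0.58 ± 0.09 (limma adjusted p = 0.0013). The difference of Ccng1 was -0.52 ± 0.09 in SKO+MEF2C (limma adjusted p = 0.0091) and -0.73 ± 0.09 in SKO+Flag (limma adjusted p = 0.00048). Its call in SKO+MEF2C was lost without either array of day 6 of that vector or the second of day 10, with limma adjusted p up to 0.096. For Cdkn2b the differences were -0.48 ± 0.06 in SKO+HDAC7, -0.44 ± 0.06 in SKO+MEF2C and -0.41 ± 0.06 in SKO+Flag (limma adjusted p = 0.00034, 0.0025 and 0.0017). The SKO+Flag calls of Cdkn2b and Mdm2 were lost when only the 4 SKO+Flag arrays were fitted (limma adjusted p = 0.056 and 0.058). Every SKO array of day 10 was lower than every array of day 6 of its vector for both genes.

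Cdkn1a/4930567H12Rik and Mdm2 were called lower at day 10 in SKO+HDAC7 and in SKO+Flag. Cdkn1a/4930567H12Rik differed by -0.55 ± 0.06 in SKO+HDAC7, by -0.21 ± 0.06 in SKO+MEF2C and by -0.43 ± 0.06 in SKO+Flag (limma adjusted p = 0.00013, 0.11 and 0.0012). Mdm2 differed by -0.34 ± 0.08, -0.33 ± 0.08 and -0.54 ± 0.08 in that order (limma adjusted p = 0.017, 0.057 and 0.0019). All 4 pairs of arrays were lower at day 10 for both genes in each vector, the uncalled ones included. The Mdm2 call in SKO+HDAC7 was lost without either array of day 6 of that vector or the second of day 10, with limma adjusted p up to 0.14. Mdm2 in SKO+MEF2C was called without either SKO+Flag array of day 10 (limma adjusted p = 0.019), and under 6 of 9 other settings (limma adjusted p = 0.019 to 0.05 in those).

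Plk2 was called lower at day 10 in SKO+MEF2C (-0.40 ± 0.08, limma adjusted p = 0.023) and in SKO+Flag (-0.52 ± 0.08, limma adjusted p = 0.0027), and had -0.25 ± 0.08 in SKO+HDAC7 (limma adjusted p = 0.069, or 0.021 without the first SKO+HDAC7 array of day 6). Its SKO+MEF2C call was lost without any single array of that vector, with limma adjusted p up to 0.19. Trp53inp1 was called lower in SKO+Flag alone (-0.65 ± 0.17, limma adjusted p = 0.044). That call was kept in 3 of 12 cases of leaving out 1 array, namely without the second SKO+Flag array of day 10 or either SKO+MEF2C array of day 6. Without the low first SKO+Flag array of day 10 the difference was -0.32 (limma adjusted p = 0.19), and over all alternatives the adjusted p ran from 0.00068 to 0.24. Cdkn2a had differences of 0.23 ± 0.13 in SKO+HDAC7, 0.14 ± 0.13 in SKO+MEF2C and 0.24 ± 0.13 in SKO+Flag, with no call (limma adjusted p = 0.29, 0.77 and 0.37).

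**Figure D4:**
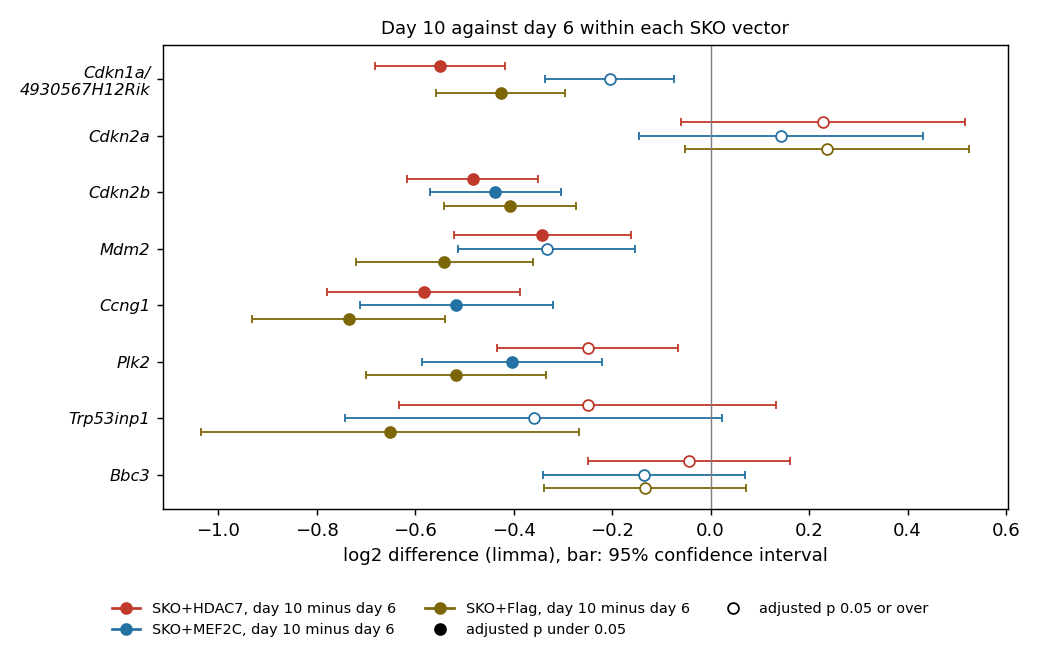
Log2 difference of day 10 from day 6 within each SKO vector for the 8 genes, with 95% confidence intervals from limma and filled points for an adjusted p under 0.05. Ccng1 and Cdkn2b are filled and below 0 in all 3 vectors, and Cdkn2a is the gene whose points lie above 0.

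The GFP cells also had lower values at day 10 for part of the list, from 1 array a day and without a test. Cdkn2b had 8.10 at day 10 and 8.62 at day 6, a difference of -0.52, beside -0.48 in SKO+HDAC7, -0.44 in SKO+MEF2C and -0.41 in SKO+Flag. Mdm2 differed by -0.40 in GFP, beside -0.34, -0.33 and -0.54 in that order of SKO vectors. Ccng1 differed by -0.34 in GFP, beside -0.583, -0.517 and -0.735. For the other 5 genes the GFP difference was between -0.12 and -0.02, with Cdkn1a/4930567H12Rik at -0.10 and Plk2 at -0.08. Proliferation markers were called lower at day 10 for 1 of 9 in SKO+HDAC7, 1 of 9 in SKO+MEF2C and 3 of 9 in SKO+Flag. Their part in the day differences was not tested.

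Whether the vectors changed these genes differently on the 2 days was tested as a change of the difference between days. None of the 8 genes was called for HDAC7 or for MEF2C against SKO+Flag, with lowest limma adjusted p of 0.41 and 0.66, beside 0.125% and 0.0853% of all genes called. At an unadjusted limma p under 0.05 there was 1 gene for each factor, but the share of all genes at that threshold was not counted. With 1 array left out, the change of Trp53inp1 for HDAC7 was called without the second SKO+Flag array of day 10 (limma adjusted p = 0.042), and no other change was called for either factor.

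Other genes of the pathways were counted from lists of p53 targets, p53 regulators, cell cycle inhibitors and Ink4 regulators. Of 30 other p53 targets measured, 7 were called higher and 15 lower in SKO+Flag than in GFP, with a median difference of -0.24 against -0.04 over all genes, of which 17.5% were called higher and 18.2% lower. The p53 targets thus moved in both directions. Perp, a membrane protein of cell junctions, was higher by 2.22 ± 0.06, while Steap3, a metalloreductase, was lower, at -1.95 ± 0.06 (limma adjusted p = 4.3e-10 and 8.6e-10). Sesn2, a stress-induced brake on mTOR signalling, had -0.97 ± 0.10 and Eda2r, a receptor of the TNF family, -0.80 ± 0.09 (limma adjusted p = 1.1e-05 and 2.9e-05). None of these 30 targets was called for HDAC7 against SKO+Flag by limma, beside 4.83% of all genes called higher and 6.06% lower. At an unadjusted limma p under 0.05, 9 of them were higher and 2 lower, but the share of all genes at that threshold was not counted. For MEF2C 4 of the 30 were called lower and none higher, beside 4.82% and 5.49% of all genes, among them the death receptor Fas and the sestrin Sesn1, both at -0.26.

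The p53 family members, cofactors and upstream kinases were called higher for 8 of 19 and lower for 1 in SKO+Flag against GFP, beside 17.5% and 18.2% of all genes, with a median difference of 0.11. The kinase Hipk2, which phosphorylates p53, had 0.76 ± 0.09 and the checkpoint kinase Chek1 0.69 ± 0.10 (limma adjusted p = 3.5e-05 and 0.00018). Hipk2 was lower with MEF2C than with the empty vector, at -0.52 ± 0.07 (limma adjusted p = 8e-04). With HDAC7, 2 of the 19 were called lower, beside 6.06% of all genes: the deacetylase Sirt1 with -0.35 ± 0.07 and Ppp1r13b, a p53 binding protein, with -0.26 ± 0.07 (limma adjusted p = 0.007 and 0.037).

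Of 18 other cell cycle inhibitors and genes of the Rb axis, 12 were called higher and 2 lower in SKO+Flag against GFP, with a median difference of 0.33 against -0.04 over all genes, of which 17.5% were called higher and 18.2% lower. The retinoblastoma gene Rb1 differed by 2.50 ± 0.09 and the kinase Cdk6, a target of the Ink4 inhibitors, by 1.17 ± 0.07 (limma adjusted p = 2.7e-09 and 1.3e-07). Cdkn1c, which codes for the inhibitor p57, was higher with HDAC7 (0.39 ± 0.06) and lower with MEF2C (-0.45 ± 0.06) than with the empty vector (limma adjusted p = 0.00098 and 0.00035). Its direction with each factor was opposite to that of Cdkn2b. With HDAC7 4 of the 18 were called higher and 1 lower, beside 4.83% and 6.06% of all genes. With MEF2C none was called higher and 7 lower, beside 5.49% and 4.82%.

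Regulators of the Ink4 locus were called higher for 6 of 18 and lower for 2 in SKO+Flag against GFP, beside 17.5% and 18.2% of all genes, with a median difference of 0.05 against -0.04 over all genes. Id1, known to oppose the Ets activators of p16Ink4a, had 1.21 ± 0.07 and the Polycomb methyltransferase Ezh2, a repressor of the locus, 0.72 ± 0.06 (limma adjusted p = 1.2e-07 and 2.1e-06). Against the empty vector, Ets2 was lower with HDAC7 (-0.40 ± 0.06) and with MEF2C (-0.24 ± 0.06), and the Polycomb gene Cbx7 was higher with HDAC7 (0.30 ± 0.06). Their limma adjusted p was 0.0017, 0.029 and 0.006. Ezh2 was lower with MEF2C, at -0.20 ± 0.05 (limma adjusted p = 0.022). Of the 3 measured neighbours of the locus, Mtap, an enzyme of methionine salvage, was the one called. Mtap differed from GFP by -0.72 ± 0.06 in SKO+HDAC7, by -0.43 ± 0.06 in SKO+MEF2C and by -0.64 ± 0.06 in SKO+Flag (limma adjusted p = 1.1e-06, 1e-04 and 3.4e-06). Against SKO+Flag it was higher with MEF2C by 0.21 ± 0.05 (limma adjusted p = 0.011) and was not called with HDAC7.

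Senescence-associated secreted and nuclear genes went both ways. In SKO+Flag against GFP 4 of 15 were called higher and 8 lower, beside 17.5% and 18.2% of all genes, with Igfbp3 at 2.16 ± 0.06 and Igfbp5 at -2.29 ± 0.07 (limma adjusted p = 3.6e-10 and 5.4e-10). With HDAC7 2 were called higher and 3 lower than with the empty vector, beside 4.83% and 6.06% of all genes. With MEF2C 4 were called higher and 5 lower, beside 5.49% and 4.82%. Igfbp7, a secreted binding protein, and Igfbp5 had the same direction as Cdkn2b with each factor. Igfbp7 differed by -1.05 ± 0.04 with HDAC7 and by 0.72 ± 0.04 with MEF2C (limma adjusted p = 2.2e-07 and 2.1e-06). Igfbp5 differed by -0.59 ± 0.05 with HDAC7 and by 0.51 ± 0.05 with MEF2C (limma adjusted p = 5.4e-05 and 0.00014).

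Genes whose levels followed a member most closely over the 14 arrays are given as a description, since the arrays share vector and day. Among 2201 other genes with an SD of at least 0.3, Plk2 was followed by Map2 (Pearson r = 0.96), Steap2 (0.947) and Pdia5 (0.947). Cdkn2a was followed by Fzd2 (0.948), P4ha1 (0.924) and Pfkl (0.924). Cdkn1a/4930567H12Rik was followed by Gla (0.968), Zyx (0.96) and Adam9 (0.928).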

How the data were processed

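The authors deposited log2 expression values per probe set, 1 column for each of 14 arrays. The submitters' processing notes name RMA and Partek, without versions. The genome build of the arrays is not given in the sources used here. The log2 values were used as deposited, without further normalization or a filter on dim probe sets.

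The platform annotation named 1 gene for 21780 of 28815 probe sets, several for 1605 and none for 5430. Where several probe sets named the same gene (998 genes), the one highest in mean over the arrays was taken. The Cdkn1a probe set, annotated to 2 genes, was added to the 19935 genes with 1 symbol. Symbols were checked against a RefSeq table by Entrez ID, where 21689 matched and 0 changed.

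The tests used limma 3.58.1 under R 4.3.3 and 1 group-means fit (lmFit, eBayes) over the 8 groups of vector and day, with 6 residual and 4.71 prior degrees of freedom. The threshold for a call, in each of 18 comparisons, was an adjusted p under 0.05 (Benjamini-Hochberg over 19936 tests). The procedure was tested on simulated independent arrays for SKO+HDAC7 against SKO+Flag over both days only. The GFP comparisons and possible pairing were not covered by that simulation. The alternatives tried were array weights, averaged probe sets, median centring, quantile normalization, a robust prior that depends on intensity, genes above the median level, a fit to the compared groups, an adjusted p under 0.01, the experiment number as a block, and leaving out each array. The number of arrays limits the precision.

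Named genes were the listed members, up to 4 called genes of each other list by size of change, and the 3 genes most like Cdkn1a, Cdkn2a and Plk2. The members and lists were chosen with earlier results of these data known. The authors' experiment numbers were checked for pairing. Deviations of same-numbered arrays correlated at -0.242 to 0.184 with mixed signs over all pairs of groups. Between groups of the same day they correlated at -0.086 to 0.184, most of them positive. The numbers were not used as pairs, and pairing within a day is not excluded. Macrophage, blood, endothelial and pluripotent cell markers served to check the cells.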

Additional observations from a re-analysis of the deposited data

How the results depend on the processing

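Of the calls for the mean of both days, those of Plk2, Cdkn2b and Cdkn2a against GFP, of Cdkn2b and Plk2 for HDAC7 and of Cdkn2b for MEF2C kept their direction and their side of the threshold under all alternatives run. So did those of Cdkn2b and Plk2 for SKO+HDAC7 against SKO+MEF2C. The Bbc3 call in SKO+Flag against GFP also held in every alternative that included this gene. The number of members called changed by over 1.5 times as follows. An adjusted p under 0.01 left 4 in SKO+HDAC7 against GFP, 1 in SKO+MEF2C against SKO+Flag, 2 in SKO+HDAC7 against SKO+MEF2C, 5 in SKO+Flag against GFP at day 10, and 0 in the day 6 comparisons of HDAC7 and MEF2C and the day 10 comparison of MEF2C. A fit to the compared groups alone, which has fewer arrays, left 3 for SKO+Flag against GFP at day 10, 3 for day 10 against day 6 in SKO+Flag, 1 for HDAC7 at day 10 and 0 for HDAC7 at day 6 and for MEF2C on either day. Median centring left 1 of 3 for MEF2C over both days, with 2004 of all genes called in place of 2055. For the other settings the share of all genes is not given here. The number of all genes called also changed in each comparison with 1 array left out. The member counts given below for those fits are therefore not shown to be particular to these genes.

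The experiment number was not used to pair the arrays in the reported fit, and pairing within a day is not excluded. As a replicate block within each day it left 1 of 3 members for MEF2C over both days, and as a block over both days 3 of 3. The calls lost were those of Plk2 and Cdkn1a/4930567H12Rik (adjusted p = 0.058 each). Both blocks ended the Mdm2 call in SKO+MEF2C against GFP (adjusted p = 0.056 over both days and 0.067 within each day), and the block within each day called Cdkn2a for SKO+HDAC7 against SKO+MEF2C (adjusted p = 0.039). With crossed numbers, an alternative chosen after seeing the data, 5 members and 1670 genes were called for day 10 against day 6 in SKO+Flag, against 6 and 1611.

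With 1 array left out, the number of members called was 4 to 8 (SKO+Flag), 3 to 7 (SKO+HDAC7) and 3 to 6 (SKO+MEF2C) against GFP. It was 2 to 4 for HDAC7 and 1 to 4 for MEF2C against SKO+Flag, 0 to 2 and 0 to 1 at day 6, and 2 to 3 and 0 to 4 at day 10. For day 10 against day 6 it was 3 to 4 in SKO+HDAC7, 1 to 4 in SKO+MEF2C and 5 to 6 in SKO+Flag. For the change between days it was 0 to 2 for SKO+Flag against GFP and 0 to 1 for HDAC7.

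Only differences without a call in the reported fit turned sign, and the cause was not tested. Under quantile normalization Cdkn1a/4930567H12Rik had -0.042 for SKO+MEF2C against GFP, 0.025 for HDAC7 against SKO+Flag and -0.024 for SKO+Flag against GFP at day 6. Under it Mdm2 had 0.028 for SKO+HDAC7 against SKO+MEF2C and 0.036 for HDAC7 at day 6, and Ccng1 -0.006 for SKO+Flag against GFP at day 6. Under median centring Ccng1 had -0.003 for MEF2C at day 6.

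With 1 array left out, Cdkn1a/4930567H12Rik ran from -0.296 to 0.033 for SKO+Flag against GFP, -0.362 to 0.091 for SKO+HDAC7 against GFP, -0.032 to 0.076 for SKO+MEF2C against GFP and -0.023 to 0.015 for HDAC7. Ccng1 ran from -0.396 to 0.004 for SKO+Flag against GFP, -0.161 to 0.021 for SKO+MEF2C against GFP, -0.205 to 0.087 for HDAC7 at day 10 and -0.006 to 0.039 for MEF2C at day 6. Mdm2 ran from -0.059 to 0.018 for SKO+HDAC7 against SKO+MEF2C and -0.054 to 0.037 for MEF2C at day 6. Cdkn2a ran from -0.019 to 0.187 for MEF2C over both days, -0.076 to 0.336 at day 6 and -0.043 to 0.118 at day 10, -0.336 to 0.075 for HDAC7 at day 6, and -0.214 to 0.198 and -0.298 to 0.113 for the change of HDAC7 and MEF2C between days. Trp53inp1 ran from -0.192 to 0.142 for MEF2C over both days, -0.212 to 0.455 at day 10 and -0.041 to 0.626 for its change. Cdkn2b ran from -0.074 to 0.016 for the change of MEF2C. Bbc3 ran from -0.041 to 0.248 for MEF2C at day 10, -0.277 to 0.011 and -0.102 to 0.015 for day 10 against day 6 in SKO+Flag and SKO+HDAC7, and -0.255 to 0.034, -0.055 to 0.234 and -0.146 to 0.142 for the change of SKO+Flag against GFP, HDAC7 and MEF2C. Precision is limited by 2 arrays per SKO group and 1 per GFP group, and by the dim signal of Bbc3.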
